A study of Mus musculus with 13 samples.

Results

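The Hoxa genes of the Hoxa cluster on chromosome 6 (Hoxa3, Hoxa4, Hoxa5, Hoxa6, Hoxa7, Hoxa9 and Hoxa10) and the cofactor genes Meis1, on chromosome 11, and Pbx3, on chromosome 2, are described here in the marrow of transplanted mice. They were taken by gene symbol from the array's gene annotation, with the row of highest mean where a symbol had several. Of the 9 genes, 7 had a named row among 19505 gene symbols on 22203 rows, while Hoxa7 and Hoxa9 had none and were not analysed here. The choice of genes used no measured value of a comparison, but it was made with earlier results of these data known.

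Whole bone marrow was profiled on 13 Affymetrix expression arrays in 3 groups. In the first, LSK cells (the stem- and progenitor-rich fraction of marrow) from donors with a Cas9 knock-in had received a guide combination that the labels call BRSST together with sgEzh2 (BRSST+sgEzh2, 4 arrays). In the second they had received BRSST with sgLuc (BRSST+sgLuc, 5 arrays), and in the third sgLuc alone (sgLuc, 4 arrays). The sources used here do not spell out BRSST. Every group shared the Cas9 knock-in donor cells, a transfer 24 h after transduction, and C57Bl/6J hosts irradiated with 7 Gy, and the harvest of complete marrow at signs of leukemia or after 6 months, with no statement of which case applied to which sample. Host cells that survived irradiation and donor cells without an edit can both contribute RNA, and no age was given. Array medians lay between 7.19 and 7.32 (log2), correlations between arrays of a group ran from 0.963 to 0.995, and the labels do not state that the arrays stand for different mice. The p-values therefore measure only how far these samples spread, and part of that may be technical. Neutrophil markers (9 of 10 with a row) lay above the array median on every array. The signal of Ezh2, the target of the added guide, averaged 8.78 ± 0.50 in BRSST+sgEzh2 marrow (SD, n = 4), 9.82 ± 0.50 in BRSST+sgLuc marrow (SD, n = 5) and 10.35 ± 0.28 in sgLuc marrow (SD, n = 4). Signal does not measure editing. The difference between the 2 BRSST groups was not called (log2 -1.05 ± 0.26, SE, limma adjusted p = 0.0808).

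Hox genes encode homeodomain transcription factors, and those of the Hoxa cluster are active in haematopoietic stem and progenitor cells and fall silent as cells mature. HOX proteins gain DNA-binding specificity from the TALE homeodomain proteins of the PBX and MEIS families. HOXA9 with MEIS1, and with PBX3, is known for driving acute myeloid leukemia. The cluster is a classical target of the Polycomb complex PRC2, whose methyltransferase is EZH2.

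The promoters of Hoxa5 and Hoxa6 are shown because these were the Hoxa members that changed, and that of Meis1 because its signal did not pass any test. Each sequence is the 250 bases before the gene start on the minus strand, from RefSeq (GRCm38.p6), with each CpG in capitals. They lie at chr6:52204588-52204837 for Hoxa5, chr6:52208673-52208922 for Hoxa6 and chr11:19018970-19019219 for Meis1.
Hoxa5: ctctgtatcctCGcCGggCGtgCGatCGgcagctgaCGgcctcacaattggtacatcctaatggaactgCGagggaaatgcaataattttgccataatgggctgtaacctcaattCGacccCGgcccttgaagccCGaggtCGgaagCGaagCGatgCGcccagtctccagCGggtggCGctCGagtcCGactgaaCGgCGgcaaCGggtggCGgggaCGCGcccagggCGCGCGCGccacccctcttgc
Hoxa6: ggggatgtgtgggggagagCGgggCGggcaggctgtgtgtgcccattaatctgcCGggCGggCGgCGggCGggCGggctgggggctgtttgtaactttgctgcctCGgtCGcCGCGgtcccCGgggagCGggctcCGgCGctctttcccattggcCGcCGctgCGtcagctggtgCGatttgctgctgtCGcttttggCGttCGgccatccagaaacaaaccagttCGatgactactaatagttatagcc
Meis1: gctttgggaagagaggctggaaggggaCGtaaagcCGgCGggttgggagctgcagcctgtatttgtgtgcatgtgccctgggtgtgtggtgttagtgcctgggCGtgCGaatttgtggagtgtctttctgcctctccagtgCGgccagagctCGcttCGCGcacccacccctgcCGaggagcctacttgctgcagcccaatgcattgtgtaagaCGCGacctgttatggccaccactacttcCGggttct

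These stretches held 28 CpGs for Hoxa5, 24 for Hoxa6 and 13 for Meis1. In the window of 300 bases that reaches 50 bases past the start, Hoxa5 had 29 CpGs, more than 87.1% of 32851 mouse promoters, Hoxa6 had 26 (more than 83.1%) and Hoxa3 had 20 (more than 73.5%). Hoxa10 had 21 and 12 at its 2 annotated starts, Meis1 had 15, Hoxa7 had 9 and Hoxa9 had 4, where the median over all promoters was 7. Hoxa5 and Hoxa6 therefore stood in the CpG-rich part of the distribution, and Hoxa9 below its median. The letters TGATTNAT, a composite HOX and PBX motif, were found on either strand in 0 of 8 windows of 7 members and in 3.221% of all promoters. The MEIS motif TGACAG was found in 1 of the 8, that of Hoxa3, and in 19.18% of all promoters. A match or its absence describes only the letters of these windows. Hoxa5 and Hoxa6 are neighbours in the cluster, both lie within the annotated span of Hoxa3, and the long non-coding gene Hoxaas3 overlaps both. The sources used here do not say how the probes handle strand and such overlaps, so signal of overlapping transcripts cannot be told apart.

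Of the 7 genes with a row, 6 passed the filter on low signal, which asked for a value above the array's median on at least 4 arrays. Hoxa3, whose protein patterns the pharyngeal region, was below the median on all 13 arrays, at 5.01 ± 0.24 in BRSST+sgEzh2 marrow (SD, n = 4), 5.02 ± 0.18 in BRSST+sgLuc marrow (SD, n = 5) and 4.86 ± 0.09 in sgLuc marrow (SD, n = 4). Every value of Hoxa3 was also below the lower quartiles of the arrays, which began at 5.59. Hoxa5 exceeded the median only on the 5 BRSST+sgLuc arrays and passed through that group alone, so that a passing gene of this kind had to differ. With no filter its calls were the same (limma adjusted p = 0.0135 for BRSST+sgEzh2 against BRSST+sgLuc and 0.000377 for BRSST+sgLuc against sgLuc).

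**Figure D1:**
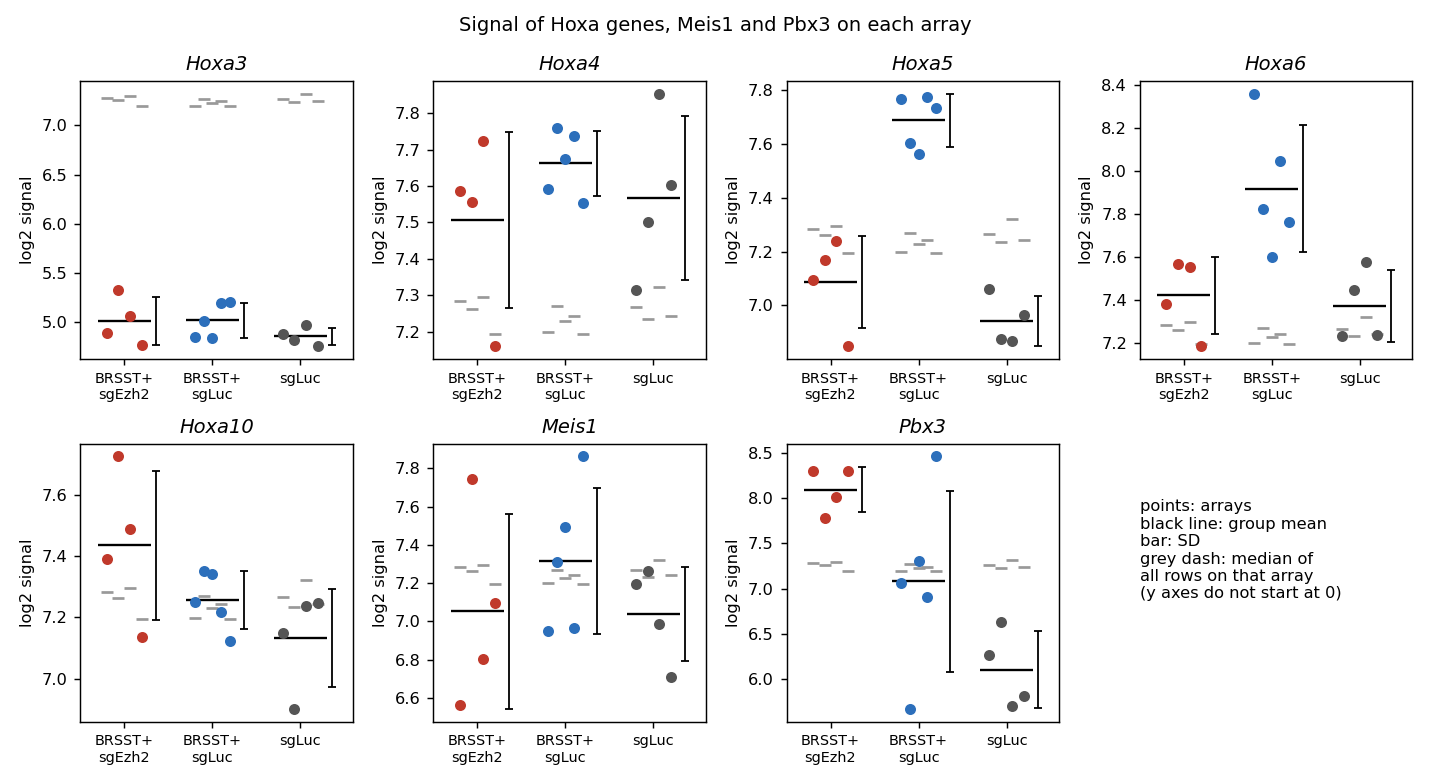
Log2 signal (y axis) of the 7 genes with a row on each array, by group (x axis), with the group mean (line), the SD (bar) and the median of all rows on that array (grey dash). Hoxa5 lies above the array median only with BRSST+sgLuc, Pbx3 is highest in mean with BRSST+sgEzh2, and Hoxa3 lies below the median on all 13 arrays.

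Hoxa5 was lower in BRSST+sgEzh2 marrow than in BRSST+sgLuc marrow, which addresses the effect of adding sgEzh2 to the BRSST guides. Hoxa5 encodes a homeodomain factor that in mice patterns the lung and axial skeleton and that in human marrow cells has been tied to myeloid over erythroid output. The BRSST+sgEzh2 arrays read log2 7.09, 7.17, 7.24 and 6.85, against 7.77, 7.60, 7.56, 7.77 and 7.73 on the BRSST+sgLuc arrays. All 4 BRSST+sgEzh2 arrays were low and all 5 BRSST+sgLuc arrays high, with no overlap. Hoxa5 fell by 0.60 ± 0.10 on the log2 scale (SE), to 66.0% of the BRSST+sgLuc level (limma adjusted p = 0.0149 over 10601 genes). It was the 1 member called in this comparison among 6 tested, beside 0.783% of all genes called, 0.67% as higher and 0.113% as lower. The call rested on single arrays. It ended when replicate 1 or 4 of BRSST+sgEzh2, or replicate 1 or 4 of BRSST+sgLuc, was left out (limma adjusted p from 0.0522 to 0.0588, log2 -0.52 to -0.60), and with only these 2 groups in the fit (0.0985).

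Hoxa6, the neighbouring gene, whose product is a further homeodomain factor of the cluster, had the same order of groups. Its BRSST+sgEzh2 signals were log2 7.38, 7.57, 7.55 and 7.18, against BRSST+sgLuc signals of 8.36, 7.82, 7.60, 8.05 and 7.76. The ranges did not overlap, although the highest BRSST+sgEzh2 array and BRSST+sgLuc replicate 3 were nearly level. The difference of -0.50 ± 0.15 (log2, SE) did not pass (limma adjusted p = 0.153), and its 95% interval ran from -0.82 to -0.17. With array quality weights it was -0.69 and passed (limma adjusted p = 0.00963). Those weights raised the calls over all genes in this comparison from 83 to 1039. Of all genes tested, 3.53% had groups that did not overlap in this comparison, 2.52% with BRSST+sgEzh2 higher and 1.01% with it lower.

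Between BRSST+sgEzh2 and BRSST+sgLuc, Hoxa4, a homeodomain factor next to Hoxa5, differed by log2 -0.16 ± 0.13 (limma adjusted p = 0.651), with BRSST+sgEzh2 signals of 7.16 to 7.72 and BRSST+sgLuc signals of 7.55 to 7.76. Hoxa10, a regulator of stem cell expansion and myeloid maturation, differed by 0.18 ± 0.12 (limma adjusted p = 0.564). Its BRSST+sgEzh2 arrays read 7.39, 7.73, 7.49 and 7.14, against 7.25, 7.35, 7.34, 7.22 and 7.12 on the BRSST+sgLuc arrays. The ranges of Hoxa4 and of Hoxa10 each overlapped between the groups. Meis1, the cofactor gene that HOXA9 is known to need for rapid leukemia in mice, ranged from 6.56 to 7.74 with BRSST+sgEzh2 and from 6.95 to 7.86 with BRSST+sgLuc. The difference was -0.26 ± 0.24 (limma adjusted p = 0.677), with a 95% interval from -0.77 to 0.24 that leaves room for a fall or a smaller rise.

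Pbx3, which encodes the PBX partner best known from HOXA-driven leukemia, had the largest spread of the members. The BRSST+sgEzh2 arrays read log2 8.30, 7.78, 8.01 and 8.30, against 7.06, 5.67, 7.31, 6.91 and 8.46 on the BRSST+sgLuc arrays. All 4 BRSST+sgEzh2 arrays were high, and 4 of 5 BRSST+sgLuc arrays were below them, but BRSST+sgLuc replicate 5 was the highest of all 13 arrays and the groups overlapped. The SD was 0.25 with BRSST+sgEzh2 (n = 4) and 0.998 with BRSST+sgLuc (n = 5). The difference of 1.01 ± 0.40 (log2, SE), or 2.02-fold, did not pass (limma adjusted p = 0.264), and with array quality weights it was 1.06 and passed (0.0248). With those weights 1039 of all genes passed, against 83 without them. BRSST+sgLuc replicates 2 and 5 were the ends of their group on the second principal component of all rows, at 39.8 and -15.6, although BRSST+sgEzh2 replicate 4 lay lower, at -32.7. They were also the lowest and the highest Pbx3 arrays of their group, so leaving them out lowers the Pbx3 spread by construction. Without both, a choice made after seeing the data, the Pbx3 difference was 1.004 ± 0.21 (limma adjusted p = 0.0469), and Hoxa5 was still called (0.0247). In this comparison Pbx3 was called in 0 of 9 fits that left out 1 array (adjusted p from 0.0663 to 0.465).

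BRSST+sgLuc marrow had higher Hoxa5 and Hoxa6 than sgLuc marrow, the comparison that asks what the BRSST guides change. Hoxa5 read 7.77, 7.60, 7.56, 7.77 and 7.73 with BRSST+sgLuc, against 7.06, 6.87, 6.87 and 6.96 with sgLuc. It rose by log2 0.75 ± 0.10 (SE), or 1.68-fold (limma adjusted p = 0.000337), and kept the call in each of 9 fits that left out 1 array (adjusted p of up to 0.0022). Hoxa6 read 8.36, 7.82, 7.60, 8.05 and 7.76 with BRSST+sgLuc, against 7.23, 7.45, 7.58 and 7.23 with sgLuc. It rose by log2 0.55 ± 0.15, or 1.46-fold (limma adjusted p = 0.019), and lost its call without sgLuc replicate 1 or 4 (0.0658 and 0.0565). For both genes all 5 BRSST+sgLuc arrays were above all 4 sgLuc arrays. These 2 members of 6 tested compare with 22.5% of all genes called in this comparison, 10.8% as higher and 11.7% as lower, and with 18.9% whose groups did not overlap, 9.09% higher and 9.82% lower. The difference from sgLuc and the difference from BRSST+sgEzh2 share the 5 BRSST+sgLuc arrays, so their opposite signs are not independent of each other.

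In the same comparison Hoxa4 differed by log2 0.09 ± 0.13 (limma adjusted p = 0.667), Hoxa10 by 0.12 ± 0.12 (0.528) and Meis1 by 0.28 ± 0.24 (0.450). Meis1 averaged 7.32 ± 0.38 in BRSST+sgLuc marrow (SD, n = 5), against 7.04 ± 0.25 in sgLuc marrow (SD, n = 4). All 3 genes overlapped between these groups. Pbx3 differed by log2 0.98 ± 0.40 (SE), or 1.97-fold, which did not pass (limma adjusted p = 0.0931). Its BRSST+sgLuc signals ran from 5.67 to 8.46, across the whole sgLuc range of 5.71 to 6.63. Replicate 2 was the 1 BRSST+sgLuc array within or below that range. Without it the difference was 1.33 and passed (limma adjusted p = 0.00651), but leaving out the lowest array raises the difference by construction. In 9 fits that left out 1 array this was the 1 call (adjusted p of up to 0.206). Of 11 other settings 2 gave a call, with adjusted p of up to 0.205 among the 11. These were the fit without replicates 2 and 5 (0.99, 0.0058) and that with array quality weights (0.79, 0.0141). With those weights 4879 of all genes were called in this comparison, against 2389 without them.

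**Figure D2:**
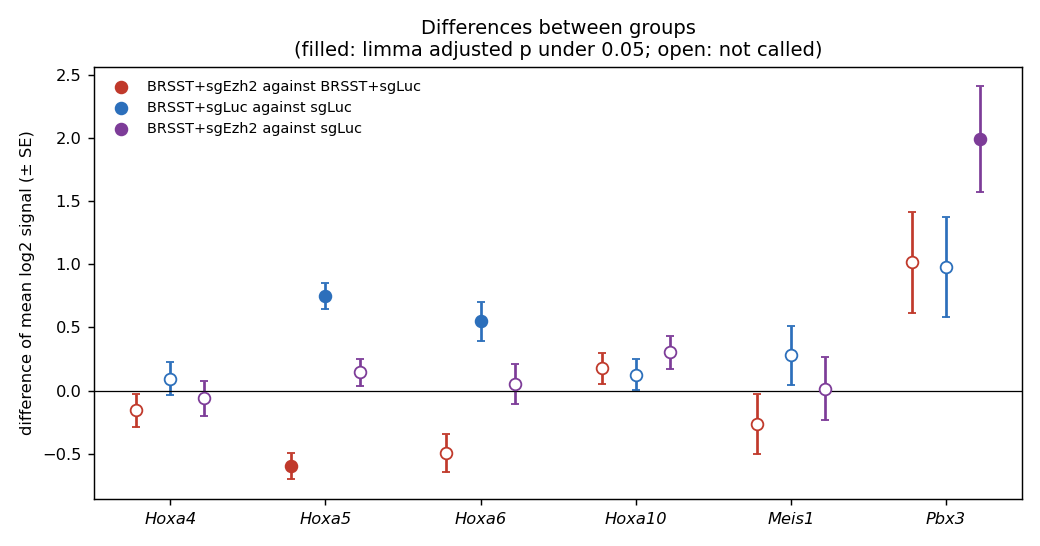
Difference of mean log2 signal (y axis, with SE) for the 6 genes tested (x axis) in 3 comparisons, where filled points passed limma's test and open points did not. Hoxa5 and Hoxa6 are higher in BRSST+sgLuc than in sgLuc, Hoxa5 is lower in BRSST+sgEzh2 than in BRSST+sgLuc, and Pbx3 has its largest difference, log2 1.99, between BRSST+sgEzh2 and sgLuc.

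Pbx3 was the member that separated BRSST+sgEzh2 from sgLuc marrow. It read log2 8.30, 7.78, 8.01 and 8.30 with BRSST+sgEzh2, against 6.27, 6.63, 5.71 and 5.82 with sgLuc. All 4 BRSST+sgEzh2 arrays exceeded all 4 sgLuc arrays, by at least a log2 unit between the nearest arrays. Pbx3 rose by log2 1.99 ± 0.42 (SE), or 3.98-fold (limma adjusted p = 0.00874), and was called in each of 8 fits that left out 1 array (0.0151 to 0.0321, log2 1.86 to 2.17). No sgLuc array had Pbx3 above its array's median, and Pbx3 would not have passed the filter without the BRSST+sgEzh2 arrays. With no filter it was still called (limma adjusted p = 0.00946). The 1 of 6 tested members compares with 9.37% of all genes called, 5.51% as higher and 3.86% as lower, and with 23.3% whose groups did not overlap, 14.2% higher and 9.06% lower.

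Hoxa5 and Hoxa6 did not pass between BRSST+sgEzh2 and sgLuc. Hoxa5 differed by log2 0.15 ± 0.11 (limma adjusted p = 0.462), with a 95% interval from -0.09 to 0.38, and Hoxa6 by 0.05 ± 0.16 (0.897), with an interval from -0.29 to 0.39. Both genes overlapped between these groups, so on the mean signal the order was BRSST+sgLuc above BRSST+sgEzh2 above sgLuc, with the lower pair within their spread. Hoxa10 had the order BRSST+sgEzh2, BRSST+sgLuc and sgLuc, at 7.44 ± 0.24 (SD, n = 4), 7.26 ± 0.09 (SD, n = 5) and 7.13 ± 0.16 (SD, n = 4). Its difference between the ends, 0.30 ± 0.13, did not pass (limma adjusted p = 0.165) and passed with array quality weights (0.0187). Those weights raised the calls over all genes in this comparison from 993 to 2976. Meis1 was level, at 0.01 ± 0.25 (0.985), with an interval from -0.52 to 0.55 that leaves room for a change either way. Hoxa4 differed by -0.06 ± 0.14 (0.849).

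**Figure D3:**
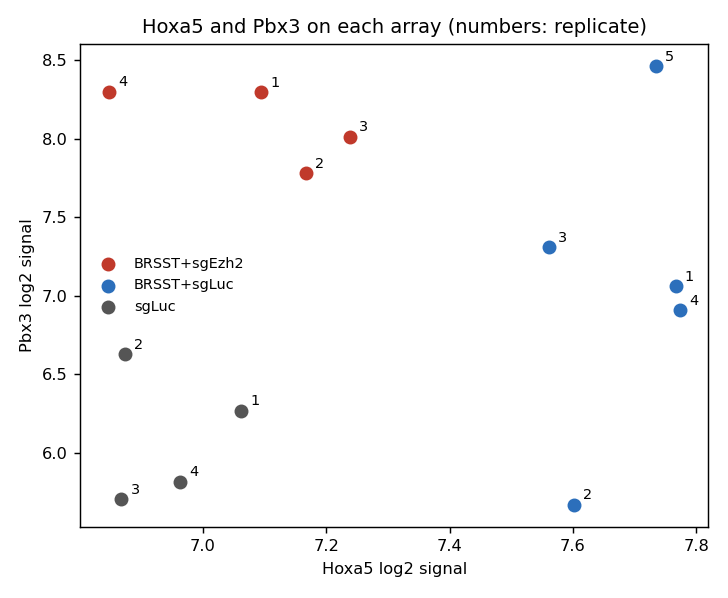
Log2 signal of Hoxa5 (x axis) and Pbx3 (y axis) on each of 13 arrays, numbered by replicate. BRSST+sgEzh2 arrays join a Hoxa5 signal of at most 7.24 to a Pbx3 signal of at least 7.78, BRSST+sgLuc arrays have Hoxa5 of at least 7.56 with Pbx3 spread from 5.67 to 8.46, and sgLuc arrays are at most 7.06 for Hoxa5 and 6.63 for Pbx3.

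Over the members tested, the median difference was log2 -0.21 for BRSST+sgEzh2 against BRSST+sgLuc (2 higher, 4 lower), 0.41 for BRSST+sgLuc against sgLuc (6 higher, 0 lower) and 0.10 for BRSST+sgEzh2 against sgLuc (5 higher, 1 lower). The medians over all 10601 genes were 0.01, 0.01 and 0.02. These medians describe only genes that passed the filter. Hoxa5, which passed it through 1 group, Meis1 and Pbx3 would each not have passed without the group of their highest mean.

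Along the chromosome, the adjoining genes Hoxa5 and Hoxa6 had the largest differences among the Hoxa genes with a row in both comparisons that use BRSST+sgLuc, while for BRSST+sgEzh2 against sgLuc Hoxa10 had the largest, at log2 0.30. Among the other Hoxa genes, Hoxa13 at the far end of the cluster, known for limb and genital patterning, was the 1 of 3 with a row that passed the filter, and it differed by log2 0.01 in each comparison between BRSST+sgEzh2 and either other group. Hoxa11, which did not pass the filter, differed by log2 0.30 ± 0.10 between BRSST+sgLuc and sgLuc and by -0.19 ± 0.10 between BRSST+sgEzh2 and BRSST+sgLuc in a fit without filter (limma adjusted p = 0.0687 and 0.499). Hoxa2, also below the filter, differed by 0.20 ± 0.10 and -0.14 ± 0.10 there (0.263 and 0.667). Among genes that flank the cluster, Skap2, an adaptor protein of leukocytes, fell by 0.43 ± 0.10 in BRSST+sgLuc against sgLuc (limma adjusted p = 0.00849), and Hibadh, a valine-degrading enzyme, fell by 0.46 ± 0.14 (0.0293). In that list 0 of 5 genes tested were called higher and 2 lower for BRSST+sgLuc against sgLuc, beside 10.8% and 11.7% of all genes. In both other comparisons 0 of the 5 were called, beside 0.783% of all genes for BRSST+sgEzh2 against BRSST+sgLuc and 9.37% for BRSST+sgEzh2 against sgLuc.

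**Figure D4:**
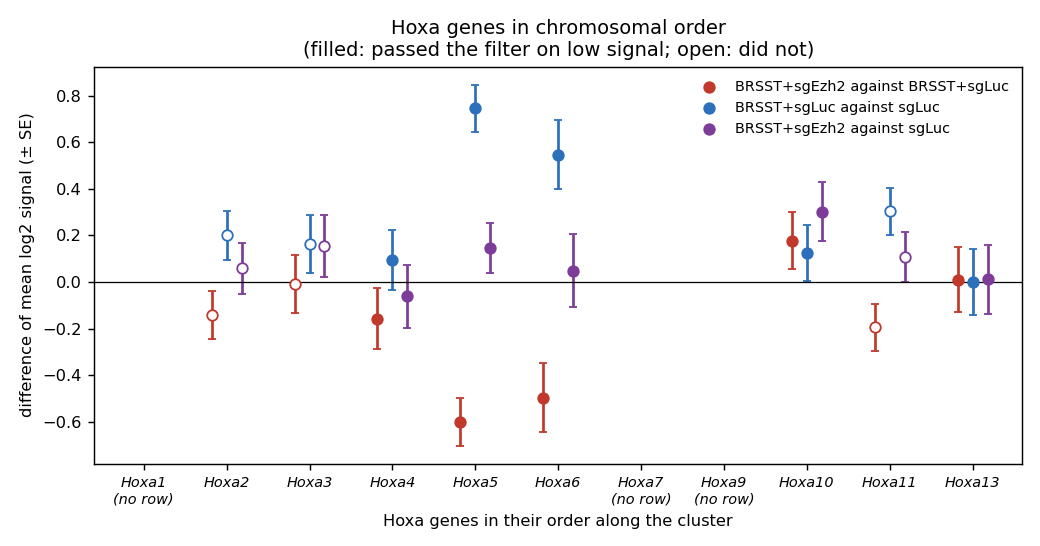
Difference of mean log2 signal (y axis, with SE, fit without a filter) of the Hoxa genes in their order along the cluster (x axis) in 3 comparisons, with open points for genes that did not pass the filter on low signal. Hoxa5 and Hoxa6 lie farthest from 0 in 2 of the comparisons, at log2 0.75 and 0.55 for BRSST+sgLuc against sgLuc and at -0.60 and -0.50 for BRSST+sgEzh2 against BRSST+sgLuc.

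Genes of the Hoxb cluster, which share ancestry and homeodomain type with the Hoxa genes, had 3 of 5 tested members called higher and 0 lower in BRSST+sgLuc against sgLuc, where 10.8% of all genes were called higher and 11.7% lower, with a list median of log2 0.38. Hoxb7 rose by 0.64 ± 0.17 (limma adjusted p = 0.0173), Hoxb2 by 0.38 ± 0.13 (0.0476) and Hoxb3 by 0.31 ± 0.10 (0.0442). None of the 5 was called in BRSST+sgEzh2 against BRSST+sgLuc or against sgLuc, beside 0.783% and 9.37% of all genes. Between BRSST+sgEzh2 and BRSST+sgLuc the median was -0.36 and Hoxb2 differed by -0.40 ± 0.13 (limma adjusted p = 0.184). Of the 18 Hoxc and Hoxd genes listed, 2 passed the filter, Hoxc9 and Hoxd12. Neither was called in any comparison, beside 0.783% to 22.5% of all genes. Among the other TALE genes, 5 of 9 were tested and 1 was called in BRSST+sgLuc against sgLuc, beside 22.5% of all genes. This was Pknox1, which encodes a MEIS-related partner of PBX proteins. Pknox1 fell by 1.03 ± 0.17 in BRSST+sgLuc against sgLuc (limma adjusted p = 0.0013), while it differed by 0.58 ± 0.17 between BRSST+sgEzh2 and BRSST+sgLuc (0.148). Pknox1 thus ran opposite to Hoxa5 in sign in both comparisons, which share the BRSST+sgLuc arrays.

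Known activators of Hoxa transcription, among them subunits of the MLL methyltransferase complexes and their partners, had 0 of 14 tested members called higher and 2 lower in BRSST+sgLuc against sgLuc, which is near the 11.7% of all genes called lower there. These were Kat6a, a histone acetyltransferase, with a fall of 0.75 ± 0.15 (limma adjusted p = 0.00321), and Rbbp5, a core MLL complex subunit, with a fall of 0.48 ± 0.15 (0.0375). None of the 14 was called in BRSST+sgEzh2 against BRSST+sgLuc or against sgLuc, beside 0.783% and 9.37% of all genes. Kat6a differed by 0.44 ± 0.15 between BRSST+sgEzh2 and BRSST+sgLuc (limma adjusted p = 0.200). PRC2 subunits had 0 of 11 called between BRSST+sgEzh2 and BRSST+sgLuc, beside 0.783% of all genes, and Ezh2 differed there by -1.05 ± 0.26 (0.0808). In BRSST+sgLuc against sgLuc 2 of 11 were called, beside 22.5% of all genes. Of these, Ezh1, the second PRC2 methyltransferase, fell by 0.45 ± 0.14 (0.0369) and Jarid2, a PRC2 cofactor, by 0.34 ± 0.10 (0.0292). In BRSST+sgEzh2 against sgLuc, Ezh2 was the 1 of 11 called, beside 9.37% of all genes, and fell by 1.57 ± 0.28 (0.00306).

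Genes reported as targets of HOXA9 and MEIS1 had 0 of 12 tested members called between BRSST+sgEzh2 and BRSST+sgLuc, beside 0.783% of all genes. There Erg, an ETS factor of stem cells, differed by log2 0.53 ± 0.14 (limma adjusted p = 0.104) and Myb, a progenitor transcription factor, by 0.54 ± 0.16 (0.143). In BRSST+sgLuc against sgLuc 2 of the 12 were called higher and 3 lower, beside 10.8% and 11.7% of all genes. Erg fell by 0.86 ± 0.14 (0.00119) and Sox4, an SRY-related factor, by 0.84 ± 0.28 (0.0466), while Id2, an inhibitor of basic helix-loop-helix factors, rose by 0.70 ± 0.17 (0.009). In BRSST+sgEzh2 against sgLuc Id2 rose by 0.64 ± 0.18 (0.0375), the 1 of 12 called, beside 9.37% of all genes. The list came from textbook knowledge of other systems, and its members did not share a direction.

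Several lists of cell type markers differed between the groups, and in bulk marrow fewer cells of a type and less RNA per cell cannot be told apart. Of all genes, 10.8% were called higher and 11.7% lower in BRSST+sgLuc against sgLuc. In BRSST+sgEzh2 against BRSST+sgLuc 0.783% of all genes were called, and 9.37% in BRSST+sgEzh2 against sgLuc. Erythroid markers (8 of 11 with a row) had a mean log2 signal of 7.16 to 8.01 on BRSST+sgEzh2 arrays. It was 8.09 to 9.12 on BRSST+sgLuc arrays and 7.20 to 7.67 on sgLuc arrays. Their group means had the order of Hoxa5, but BRSST+sgEzh2 and sgLuc overlapped, with a list median of log2 0.04 between them. In BRSST+sgLuc against sgLuc 4 of 7 tested were called higher, led by Car1 (log2 2.58 ± 0.53, limma adjusted p = 0.00392), and none in the other comparisons. Stem and progenitor markers (8 of 10) lay at 7.67 to 8.35, 7.45 to 8.01 and 7.78 to 7.96, with overlap between all groups. Gata2, a stem cell factor, was the 1 of 5 tested that was called in BRSST+sgLuc against sgLuc, where Hoxa5 and Hoxa6 rose. It fell by 1.0004 ± 0.26 (limma adjusted p = 0.0143), and none of the 5 was called in the other comparisons. B lineage markers (9 of 10) lay at 6.97 to 9.16, 6.85 to 8.70 and 9.32 to 10.61, and T and NK markers (8 of 8) at 5.98 to 8.61, 5.96 to 7.82 and 8.24 to 8.67. In BRSST+sgLuc against sgLuc 7 of 8 tested B lineage markers were called lower, led by Vpreb3 (log2 -4.24 ± 0.63, limma adjusted p = 0.000547). So were 6 of 7 T and NK markers, led by Klrb1c (-2.98 ± 0.73, 0.0102). In BRSST+sgEzh2 against sgLuc 2 of the 8 B lineage markers and 0 of the 7 T and NK markers were called lower. Their list medians there were still log2 -2.14 and -0.96. Monocyte and macrophage markers (6 of 7) lay at 9.56 to 10.49, 8.79 to 9.89 and 10.39 to 10.53, and stroma and endothelium markers (8 of 8) at 6.88 to 7.09, 6.79 to 7.04 and 7.01 to 7.28. Of 6 monocyte and macrophage markers tested, 4 were called lower in BRSST+sgLuc against sgLuc, led by Cx3cr1 (log2 -2.44 ± 0.28, limma adjusted p = 0.000107). Mpeg1 was the 1 marker of any list called between BRSST+sgEzh2 and BRSST+sgLuc, where it rose by 1.38 ± 0.28 (0.0371). Between BRSST+sgEzh2 and sgLuc Cx3cr1 was the 1 of the 6 called, at -1.83 ± 0.30 (0.00183), with a list median of -0.17. In BRSST+sgLuc against sgLuc 1 of 9 neutrophil markers was called higher and 3 lower, led by Mmp8 (log2 -0.76 ± 0.17, limma adjusted p = 0.00696). Of 4 stroma and endothelium markers Pecam1 was called lower (-0.87 ± 0.22, 0.0109). In that comparison 1 call in a list of this size does not stand out from all genes. Against sgLuc, BRSST+sgEzh2 marrow had 2 of the 9 neutrophil markers called, Prtn3 (log2 0.54 ± 0.12, limma adjusted p = 0.0128) and Ltf (-0.43 ± 0.10, 0.0168). Group means of the neutrophil, monocyte and macrophage, B lineage, T and NK, and stroma and endothelium lists had the reverse of the Hoxa5 order. The part of these markers in the differences of Hoxa5, Hoxa6 and Pbx3 was not tested.

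Arrays also differed in the Y-linked genes Uty and Kdm5d, whose signal was high for 2 of 4 arrays with BRSST+sgEzh2, 2 of 5 with BRSST+sgLuc and 4 of 4 with sgLuc. Within the high class, BRSST+sgEzh2 minus BRSST+sgLuc was log2 -0.64 for Hoxa5, -0.73 for Hoxa6 and 1.05 for Pbx3 (2 arrays each). Within the low class it was -0.59 for Hoxa5, -0.36 for Hoxa6 and 1.01 for Pbx3 (2 and 3 arrays), so the directions were alike in both. For Meis1 the sign differed between the classes, at 0.20 in the high and -0.60 in the low class. Against the sgLuc arrays, within the high class, BRSST+sgLuc was higher by 0.83 for Hoxa5 and 0.83 for Hoxa6, and BRSST+sgEzh2 was higher by 1.93 for Pbx3. Label numbers of the arrays run on through both BRSST groups and resume after a gap for sgLuc, so sgLuc and a possible batch of arrays cannot be told apart.

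After each group's mean was subtracted, Pearson's r over the 13 arrays was 0.48 between Hoxa5 and Hoxa6, 0.60 between Hoxa4 and Hoxa10, -0.56 between Hoxa10 and Pbx3, and 0.31 between Meis1 and Pbx3. These arrays share their groups and processing, and r is given as a description. By the same measure, among 10278 tested genes, Apol7b (0.88) and Mt2 (0.81) were most like Hoxa5, Rcn3 (0.90) and Best1 (0.90) most like Hoxa6, and Eya3 (0.96), Rnf168, Kdm3a and Sirt1 (0.95 each) most like Pbx3. These are the highest of many values over few arrays. BRSST+sgLuc replicates 2 and 5 lay farthest from their group's Pbx3 mean (5.67 and 8.46, mean 7.08). They weigh heavily in each r of Pbx3.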

How the data were processed

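The authors deposited log2 signals for each row of each array. The submitters' processing notes name R 3.5.01 and oligo. The sources used here do not say how background and normalization were handled, and the log2 scale was read from the values (3.23 to 13.75). Per the labels' protocols, 2 ng of RNA was amplified with 10 PCR cycles before labelling. Precision is limited by the number of arrays, which carry no read depth.

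Of 22203 rows, 19572 had exactly 1 symbol and were used, and 2631 did not. All symbols matched RefSeq (GRCm38.p6) by Entrez number and 0 changed. Genes above their array's median on at least 4 arrays (10601) were tested with limma 3.58.1 in R 4.3.3, in 1 fit over 13 arrays with no covariates, Benjamini-Hochberg adjustment and a threshold of 0.05. Every adjusted p is from that fit unless a setting is named. Scripts were tested on simulated data. Figures used matplotlib 3.10.9.

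The members, gene lists and tests were chosen with earlier results of these data known. The rule for named genes took all members and, per list and comparison, up to 3 called genes of largest change, or the 2 of smallest p. Not every list gene that the rule takes is named in the text. The rule for likeness named Hoxa9, which had no row, so likeness was computed for the members called in any comparison, a choice made after seeing the data. Alternatives were other filters, quantile normalization, medians set equal, averaging the rows of a gene, a trended and robust variance, array weights, the replicate number or Y-linked class as a block, only 2 groups, a threshold of 0.01, and each array left out in turn. A fit without BRSST+sgLuc replicates 2 and 5 was added after seeing the data.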

Additional observations from a re-analysis of the deposited data

How the results depend on the processing

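Of the 6 members tested, 1 was called in BRSST+sgEzh2 marrow against BRSST+sgLuc, 2 in BRSST+sgLuc marrow against sgLuc, and 1 in BRSST+sgEzh2 marrow against sgLuc. The stricter filter (the 75th percentile) left no member, so each count was 0. For BRSST+sgEzh2 against BRSST+sgLuc the count was 0 with the replicate block (Hoxa5 adjusted p = 0.0875), with only the 2 groups compared or at a threshold of 0.01, 3 with array quality weights, 2 without BRSST+sgLuc replicates 2 and 5, and 0 to 1 with 1 array left out. For BRSST+sgLuc against sgLuc it was 1 at 0.01, 3 with array quality weights, 3 without BRSST+sgLuc replicates 2 and 5, and 1 to 3 with 1 array left out, and for BRSST+sgEzh2 against sgLuc 2 with array quality weights and 1 to 1 with 1 array left out. The labels do not say that replicate numbers pair the samples. Same-numbered arrays had correlations of deviations from -0.176 to 0.192, which cannot decide it with so few arrays. The replicate block changed no other call. Array quality weights raised the calls over all genes from 83, 2389 and 993 to 1039, 4879 and 2976 in the 3 comparisons. Signs turned only for differences that did not pass. Meis1 in BRSST+sgLuc against sgLuc was -0.0173 with array quality weights. In BRSST+sgEzh2 against sgLuc, Meis1 was -0.18 with array quality weights, -0.10 with the Y-linked class as a block and -0.22 to 0.18 with 1 array left out, and Hoxa4 was 0.0754 with array quality weights and -0.15 to 0.0535 with 1 array left out. The cause was not tested. Signals near the array median limit how small a change can be seen.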
